A study of Rattus norvegicus with 2 samples.

Results

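The oligodendrocyte and myelin genes described here are 9 genes: 6 that encode proteins of the myelin sheath (Mbp, Mog, Mag, Cnp, Mobp and Cldn11) and 3 that encode transcription factors of the oligodendrocyte lineage (Olig1, Olig2 and Sox10). They were chosen by name, with earlier results of these arrays known, and their probes were found by matching the transcript accessions on the array to RefSeq genes. All 9 had named probes, 16 probes in 53 spots, out of 16575 named genes on the array. The samples were of NTS, the nucleus of the solitary tract, a visceral sensory and cardiovascular centre of the dorsal medulla, dissected from 1.0 mm rostral to 0.5 mm caudal of the calamus scriptorius by 1 operator. The rats were males and females of the SHR strain, which becomes hypertensive, at 9 weeks of age, with no treatment named in the labels, and the labels name no rats of another strain. For each sex, 100 ng of RNA from each of 5 rats was pooled and hybridised to 1 array, so the study has 2 arrays, 1 male and 1 female, and each difference below compares 2 pools with no test and no estimate of the variation between animals.

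Oligodendrocytes wrap axons of the central nervous system in myelin, a stack of lipid-rich membrane that speeds conduction and supports the axon. Progenitor cells leave the cell cycle, start to differentiate under Olig2 and Sox10, and then switch on the genes of the sheath and of its lipids. The medulla holds ascending and descending fibre tracts and the solitary tract itself, so a dissected block of NTS contains both neuronal cell bodies and myelinated axons.

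Signals are given as scaled signals, in which the 75th percentile of the processed signal on each array is set to 100. A difference is the log2 signal of the female pool minus that of the male pool, and a negative difference means that the gene was lower in the female pool. Values for males and for females are those of the 2 pools. Probes bind with different strength, so scaled signals are compared between arrays and not between probes. Between 80.1% and 82.3% of the spots outside the controls were well above background on an array, no spot was saturated, and both arrays lay on 1 slide read in 1 scan. Th and Dbh, the noradrenaline synthesis genes of this region, had scaled signals of 602 and 399 in the male pool and 532 and 381 in the female pool. Hoxb5, a Hox gene of the hindbrain, had 89.8 and 100.1. All 9 oligodendrocyte genes were well above background on both arrays with all 16 probes.

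All 9 genes were lower in the female pool, and the median of the 6 myelin protein genes was lower than that of the 3 transcription factor genes. The median difference was -0.22 for the myelin protein genes, a 1.16-fold higher signal in the male pool, and -0.061 for the transcription factor genes, a 1.04-fold higher signal in the male pool. Cnp, Mog, Cldn11, Mobp and Mag were at least 1.1-fold higher in the male pool, and none of the 9 reached 1.5-fold. Only Cnp reached 1.2-fold, a size that 4.48% of all measured genes reached in the male pool. Of all 13424 measured genes, 11.6% were at least 1.1-fold higher in the male pool and 44.5% were lower in the female pool by any amount. Among the 5043 measured genes in the signal range of the 9 genes, a set chosen after seeing the data, these shares were 5.83% and 46.7%. The median difference of all measured genes was 0.016. In bulk RNA, fewer oligodendrocytes and less RNA per oligodendrocyte cannot be told apart.

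The direction of the 3 smallest differences depended on the scaling. The synthetic spike-in RNAs, added in the same amount to each labelling, had a median difference of -0.083 over 280 spots well above background. Centring on them adds a step of 0.083 to every difference on the array. With this step, 19.6% of all measured genes were lower in the female pool, and their median difference was 0.099. The myelin protein median was then still lower in the female pool, at -0.13, but the transcription factor median became 0.022, and Mbp, Olig1 and Olig2 were no longer lower there. The step is the same for all genes, so any difference between -0.083 and 0 changes direction with it, and it leaves the distance between the myelin protein and transcription factor medians at -0.15.

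**Figure D1:**
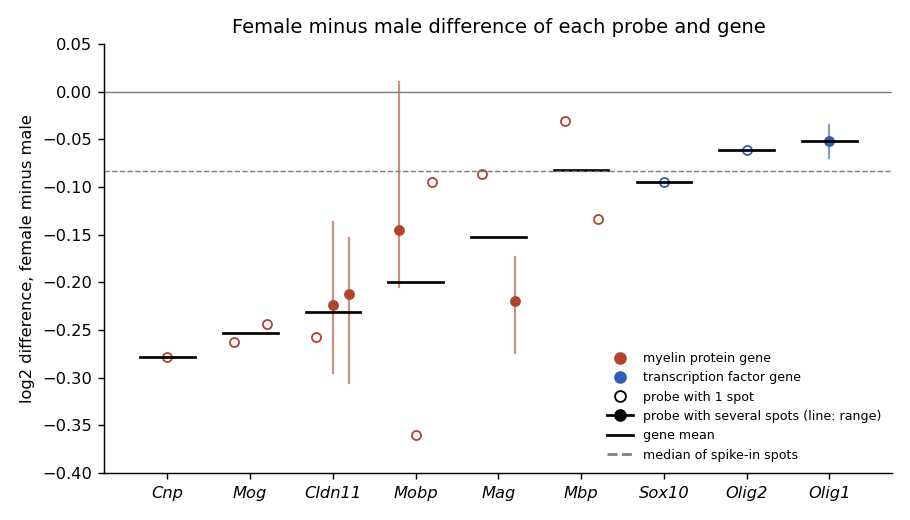
Female minus male log2 difference (vertical axis) for each probe of the 9 genes (horizontal axis), with vertical lines for the range over the spots of probes printed several times, black bars for gene means and a dashed line at the spike-in median of -0.083. Cnp, Mog, Cldn11, Mobp and Mag had means from -0.28 to -0.15, Mbp had -0.082 and the transcription factor genes had -0.095 to -0.052; Mbp, Olig2 and Olig1 lie above the dashed line and so change direction with spike-in centring.

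Cldn11 encodes claudin 11, which forms the tight junctions between the wraps of central myelin. Its 3 probes gave differences of -0.26, -0.22 and -0.21. Probe A_44_P1160249, printed in 10 spots of which 1 was left out for an outlier flag, had scaled signals from 591 to 631 in the male pool, with a median of 610.5, and from 499 to 543 in the female pool, with a median of 525. Probe A_44_P1160763, with 10 spots, ran from 459.6 to 496 in the male pool and from 381 to 430.02 in the female pool. No spot of either probe in the female pool reached the lowest spot in the male pool. These spots are technical repeats, and how many other repeated probes on the array separate in this way was not counted. The third probe, with 1 spot, had 17.1 for males and 14.3 for females. The gene mean was -0.23, a 1.17-fold higher signal in the male pool.

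Mag encodes myelin-associated glycoprotein, the adhesion molecule on the inner wrap that faces the axon. Probe A_64_P019613 had 10 spots, from 212 to 233 in the male pool with a median of 221, and from 183 to 199 in the female pool with a median of 190.2. The spots, which are technical repeats, did not overlap between the arrays, and the share of all repeated probes that do so was not counted. The difference of this probe was -0.22 with an SD over spots of 0.029. The other probe, with 1 spot, had 20.2 for males and 19.01 for females, a smaller difference of -0.086. The mean of both was -0.15, and with the spike-in step it was -0.070, below 1.1-fold.

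Mobp encodes myelin-associated oligodendrocyte basic protein, a small basic protein of the compact sheath. Its 10-spot probe A_44_P1082019 ran from 73.8 to 81.4 in the male pool, with a median of 77.8, and from 66.2 to 75.7 in the female pool, with a median of 69.6. The spots of this probe overlapped between the arrays, and 9 of 10 positions were lower in the female pool. The difference was -0.15 with an SD over spots of 0.063. A second probe had 27.9 for males and 21.7 for females, a difference of -0.36, and the remaining probe had 60.1 and 56.3, a difference of -0.095. The 3 Mobp probes carry 1 accession and differed in size but not in direction, with a gene mean of -0.20.

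**Figure D2:**
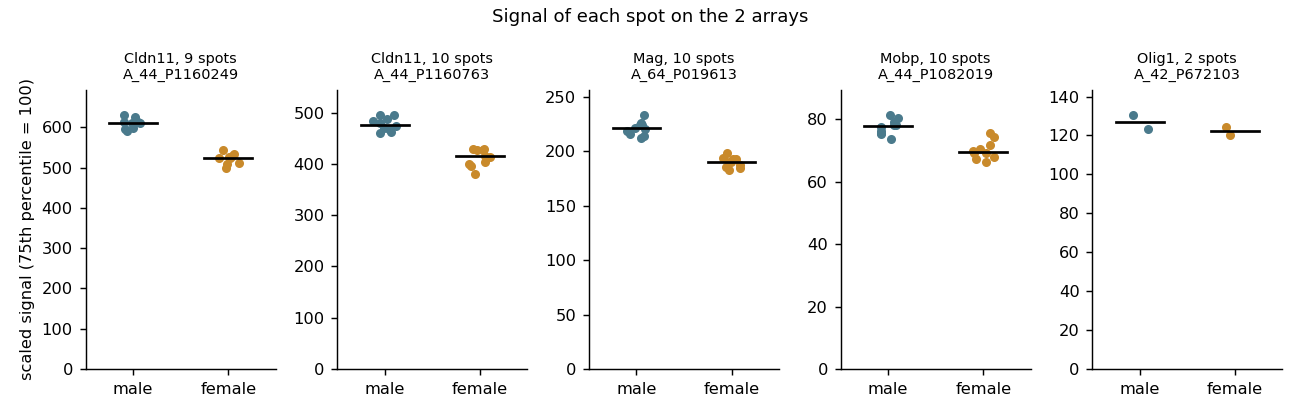
Scaled signal (vertical axis, from 0) of every spot without an outlier flag in the male and female pool for the 5 probes printed more than once, with bars at the medians. The spots of both Cldn11 probes and of the Mag probe did not overlap between the arrays, while those of Mobp and Olig1 did. The spots of 1 array are technical repeats, and how many other repeated probes on the array separate in this way was not counted.

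Cnp encodes the enzyme that keeps cytoplasmic channels open in the sheath, and it had the largest gene difference of the 9. Its single spot had a signal of 33.3 for males and 27.5 for females, a difference of -0.28 and a 1.21-fold higher signal in the male pool. Mog encodes the glycoprotein on the outermost surface of the sheath. Its 2 probes had 40.2 and 15.6 in the male pool and 33.5 and 13.2 in the female pool. They gave similar differences of -0.26 and -0.24, and the gene mean was -0.25. Each of these probes had 1 spot, so no spot SD of their own can be given. Over 105 probes with at least 8 spots in the same band of signal, between scaled signals of 9.43 and 45.7, the SD of the difference between spots had a median of 0.060 and a 95th percentile of 0.098. The Cnp and Mog differences were larger than this spot error, which covers spots and not animals, pools or labelling.

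Mbp encodes myelin basic protein, which holds the cytoplasmic faces of the sheath together. It was the myelin gene with the smallest difference. Probe A_64_P017163 had a signal of 7505 for males and 6841 for females, a difference of -0.13. Probe A_64_P017160, which carries the accession of another Mbp transcript, had 20.7 for males and 20.3 for females, a difference of -0.031 that lies within the spot error. The gene mean of -0.082 was not below that of Sox10. Mbp was -0.20 after quantile normalization, -0.13 when only the brighter probe was used, and 0.00092 with spike-in centring.

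The median of the transcription factor genes lay closer to 0 than that of the myelin protein genes, although Sox10 lay further from 0 than Mbp. Olig1, whose product acts in the maturation of oligodendrocytes, had 123 and 130.5 in its 2 spots in the male pool and 120.5 and 124 in the female pool. These spots overlapped, and the difference was -0.052 with an SD over spots of 0.024. Olig2, whose product specifies the lineage, had 48.7 for males and 46.7 for females, a difference of -0.061. Sox10, whose product activates myelin genes, had 47.9 for males and 44.8 for females, a difference of -0.095. Olig1 and Olig2 lie on 1 chromosome with 0 protein-coding genes between them in the RefSeq table. In the brightest band of signal, where all 3 probes lay, the SD between spots had a median of 0.039 over 1155 repeated probes, with a 95th percentile of 0.063. The differences of Olig1 and Olig2 were below that percentile and that of Sox10 was above it. The percentile is of SDs over probes and is not a limit for a difference, so it does not set Sox10 apart from the others.

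Setting the myelin protein genes against the transcription factor genes, the medians differed by -0.15, and this distance ran from -0.16 to -0.13 over the 13 other settings tried. Scalings that add the same step to every gene cannot change this distance. The filters on dim probes and the authors' values, which are the same signal divided by a constant, could hardly do so. The gene values of the groups overlapped, because Mbp at -0.082 was higher than Sox10 at -0.095. They did not overlap after quantile normalization or when only the brightest probe of a gene was used. By probe, all 16 were lower in the female pool, against 43.9% of all measured probes, and 9 of 13 myelin protein probes and 0 of 3 transcription factor probes were at least 1.1-fold higher in the male pool, against 12.9% of all 33485. Of the 48 myelin protein spots without an outlier flag, 47 were lower in the female pool, and so were 4 of 4 transcription factor spots. Spots of a probe are technical repeats on the same pair of arrays, and 39 of the 48 came from 4 probes. Probes printed 10 times were often lower in the female pool in general: of 1233 such probes, 64.6% were lower there by any amount and 7.06% were at least 1.1-fold higher in the male pool.

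**Figure D3:**
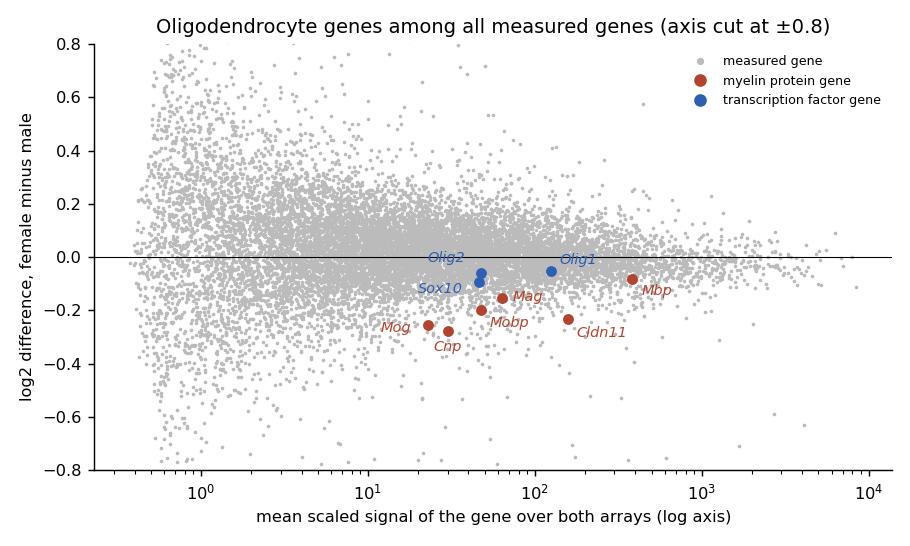
Female minus male log2 difference (vertical axis) against the mean scaled signal of both arrays (horizontal log axis) for all measured genes in grey, with the 6 myelin protein genes in red and the 3 transcription factor genes in blue; 145 genes lie beyond the axis limit of 0.8. The spread of all genes narrows toward high signal, and Cnp, Mog, Cldn11, Mobp and Mag lie along its lower edge. Mbp and the transcription factor genes lie within it, and Mbp, Olig1 and Olig2 are not below 0 with spike-in centring.

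Promoters were searched for short motifs of factors that drive this lineage, because the myelin protein genes were lower together. RefSeq promoter windows of build GRCr8 were matched for 6 of the 9 genes, namely Cldn11, Cnp, Mag, Mbp, Mobp and Olig2, and the 250 bases before the listed transcript start were used. Mbp had 2 windows and the other 5 genes 1 each, and a gene was counted when any of its windows held the motif, while the shares of all promoters count windows. The motifs were ACAAAG and ACAATG, as bound by SOX factors, CAGCTG and CATATG, E-boxes of the kind bound by OLIG factors, and CTGGNAC, the core of the site of MYRF, the factor that maintains myelin gene expression. Both strands were read, so a match on the other strand appears below as its reverse complement. The MYRF core was found in 5 of the 6 genes (Cldn11, Cnp, Mag, Mbp and Olig2) and in 14.8% of all 33469 promoter windows. ACAAAG was found in 4 (Cnp, Mag, Mbp and Mobp) and in 16.3% of all windows, CAGCTG in 2 (Cnp and Mbp) and in 12% of all windows, and ACAATG in 1 (Mbp) and in 11.1% of all windows. CATATG was in 0 of the 6 and in 3.63% of all windows. A match describes these letters and is not shown to be a binding site.

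The windows of 4 myelin protein genes and of Olig2 are shown to let the matches be seen in place. They lie at chr2:114149540-114149789 on the minus strand for Cldn11, chr10:86011254-86011503 on the plus strand for Cnp and chr1:95291045-95291294 on the minus strand for Mag. Those of Mobp and Olig2 lie at chr8:128746982-128747231 and chr11:43961335-43961584, both on the plus strand. Each sequence is written 5′ to 3′ on the strand of its gene, ends at the base before the transcript start, and has the matches in capitals; no printed matches overlap.
Cldn11: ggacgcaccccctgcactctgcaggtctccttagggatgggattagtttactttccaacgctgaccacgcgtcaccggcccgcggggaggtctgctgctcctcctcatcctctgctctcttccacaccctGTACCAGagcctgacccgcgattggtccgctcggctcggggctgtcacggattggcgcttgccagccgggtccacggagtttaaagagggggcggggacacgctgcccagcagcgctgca
Cnp: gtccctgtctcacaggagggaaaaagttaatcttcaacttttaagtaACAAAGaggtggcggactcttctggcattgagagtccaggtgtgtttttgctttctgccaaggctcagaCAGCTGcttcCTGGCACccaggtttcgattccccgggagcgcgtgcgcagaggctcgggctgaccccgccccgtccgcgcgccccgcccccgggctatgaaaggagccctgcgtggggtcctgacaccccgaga
Mag: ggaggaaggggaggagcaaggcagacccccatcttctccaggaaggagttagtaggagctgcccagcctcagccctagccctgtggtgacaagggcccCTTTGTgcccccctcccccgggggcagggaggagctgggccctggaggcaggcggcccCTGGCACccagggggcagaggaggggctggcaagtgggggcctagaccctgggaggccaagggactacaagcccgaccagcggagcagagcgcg
Mobp: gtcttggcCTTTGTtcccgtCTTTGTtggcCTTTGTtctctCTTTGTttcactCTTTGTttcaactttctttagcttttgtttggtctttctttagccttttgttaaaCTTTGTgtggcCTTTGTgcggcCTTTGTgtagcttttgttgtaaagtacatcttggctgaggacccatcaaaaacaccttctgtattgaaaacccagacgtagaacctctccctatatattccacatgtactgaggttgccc
Olig2: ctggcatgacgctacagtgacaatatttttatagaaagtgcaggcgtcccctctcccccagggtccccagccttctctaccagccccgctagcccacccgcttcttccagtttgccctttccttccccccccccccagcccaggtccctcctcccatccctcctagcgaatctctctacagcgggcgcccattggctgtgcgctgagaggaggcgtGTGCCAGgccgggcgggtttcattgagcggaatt
Cnp held matches to 3 of the motifs, and the Mobp window held 8 matches to ACAAAG, all on the other strand. The Cldn11 and Olig2 windows held the MYRF core alone.

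The wider set of myelin genes was lower in the female pool as well, in lists that were chosen with earlier results of these arrays known. Of 20 other measured genes of sheath and paranode proteins, 18 were lower in the female pool (13 with spike-in centring), 9 were at least 1.1-fold higher for males and 0 for females. The median was -0.11, and -0.022 with that centring, and the genes ran from -0.31 to 0.079. Of all measured genes, 44.5% were lower in the female pool and 11.6% were at least 1.1-fold higher in the male pool. With spike-in centring, 19.6% of all measured genes were lower in the female pool, and their median was 0.099. Pmp22, a membrane protein best known from peripheral myelin, had 101 for males and 81.8 for females, a difference of -0.30, and Cd81, a tetraspanin, had 422 and 389, a difference of -0.12. Chosen after their values were seen, the gap junction gene Gjc3 had -0.21, Ermn, which encodes a cytoskeletal protein of the sheath, -0.22, and Opalin -0.18. Gjc3, with 6.14 for males and 5.30 for females, and Ermn, with 4.94 and 4.23, were dim. In their band of signal the SD between spots of repeated probes had a median of 0.115 and a 95th percentile of 0.195. Picked in the same way, Tppp had -0.0023 and Cntn2 -0.016. Omg at 0.034 and Gpm6b at 0.079 were the 2 genes of this list that were higher in the female pool.

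Genes enriched in mature oligodendrocytes were mostly lower in the female pool too, with Car2, Ndrg1 and Il33 as the exceptions. Of 17 measured, 14 were lower in the female pool (13 with spike-in centring), 11 were at least 1.1-fold higher in the male pool, and the median was -0.17, or -0.083 with that centring. Among those singled out after their values were seen, Klk6, an oligodendrocyte protease gene, had 45.4 for males and 33.8 for females, a difference of -0.43. Apod, which encodes apolipoprotein D, had -0.28, Gpr37 -0.23, the transferrin gene Tf -0.22 and the pterin reductase gene Qdpr -0.21. Car2, the carbonic anhydrase gene of oligodendrocytes and also of choroid plexus epithelium, went the other way, with 30.8 for males and 49.6 for females, a difference of 0.69. It was the only gene of these 2 lists past 1.5-fold, a size that 1.5% of all measured genes reached in the female pool and 0.797% in the male pool. Ndrg1 at 0.098 and Il33 at 0.061, of the mature oligodendrocyte list, were also higher in the female pool.

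The enzymes that make myelin lipids were lower in the female pool in small steps. Of 9 measured genes for galactolipids and long-chain sphingolipids, 8 were lower there (5 with spike-in centring), with a median of -0.094, which was then -0.011. The 2 with the largest differences were Fa2h, the fatty acid 2-hydroxylase gene, at 43.0 for males and 34.8 for females, and Ugt8, the galactosyltransferase gene of cerebroside synthesis, at 116 and 97.9. Their differences were -0.31 and -0.24. Elovl1 and Degs1, also used outside myelin, had -0.11 and -0.075. All 16 cholesterol synthesis genes were lower in the female pool (13 with spike-in centring), and 6 were at least 1.1-fold higher in the male pool. Their median was -0.14, and -0.053 with that centring. Hmgcs1, which makes the precursor of mevalonate, had -0.20, Dhcr7, of the last steps, -0.24, Hsd17b7 -0.30 and Msmo1 -0.14. Cholesterol synthesis also runs in astrocytes and neurons.

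Genes of the progenitor and of newly formed oligodendrocytes went both ways, much as all measured genes did. Of 13 measured, 6 were lower (4 with spike-in centring) and 7 were higher in the female pool, 2 were at least 1.1-fold higher for males and 3 for females. The median was 0.056, and it was 0.012 after normexp correction and 0.14 with spike-in centring. Of all measured genes, 44.5% were lower in the female pool, or 19.6% with spike-in centring. At least 1.1-fold higher were 11.6% of all measured genes in the male pool and 18.8% in the female pool. Without that centring, the counts of the progenitor list lay near these shares. Pdgfra, the growth factor receptor gene of progenitors, had 69.0 for males and 76.1 for females, a difference of 0.14. The proteoglycan genes Cspg4 and Cspg5 had differences of 0.17 each. Bcas1, a gene of newly formed oligodendrocytes, had 75.4 and 69.6, a difference of -0.12. The difference between the progenitor median and the myelin protein median was not tested.

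The other transcription factor genes of the lineage were split, with 7 of 14 lower in the female pool (6 with spike-in centring) and 4 at least 1.1-fold higher in the male pool. Their median was -0.034, and 0.049 with that centring. Of all measured genes, 44.5% were lower in the female pool, or 19.6% with that centring. The split of this list without that centring therefore lay near the share of all measured genes. At least 1.1-fold higher were 11.6% of all measured genes in the male pool and 18.8% in the female pool. Hes5, a Notch target gene with 1 probe, was dim, with 4.83 for males and 3.45 for females, a difference of -0.49. In its band of signal the SD between spots of repeated probes had a median of 0.115 and a 95th percentile of 0.195. Nkx6-2, which acts in oligodendrocyte maturation, had 31.6 and 24.4, a difference of -0.38, Id2 had -0.26 and Myrf had 197 and 183, a difference of -0.11. Nkx2-2, chosen after its value was seen, had 0.023. Among 19 ligand and receptor genes the differences went both ways, 5 at least 1.1-fold higher on each array, with a median of -0.041 that was 0.042 with spike-in centring. Erbb3, a neuregulin receptor gene, was dim, with 1.22 for males and 0.91 for females, a difference of -0.42. Fgf2, a mitogen gene of progenitors, had -0.30, while Rtn4 and Adgrg1, the brightest of the list, had -0.045 and -0.026. Erbb4 at 0.30 and the insulin-like growth factor receptor gene Igf1r at 0.27, chosen after their values were seen, were higher in the female pool. Erbb4, with 2.72 for males and 3.34 for females, was dim and lay in the same band of signal as Hes5.

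**Figure D4:**
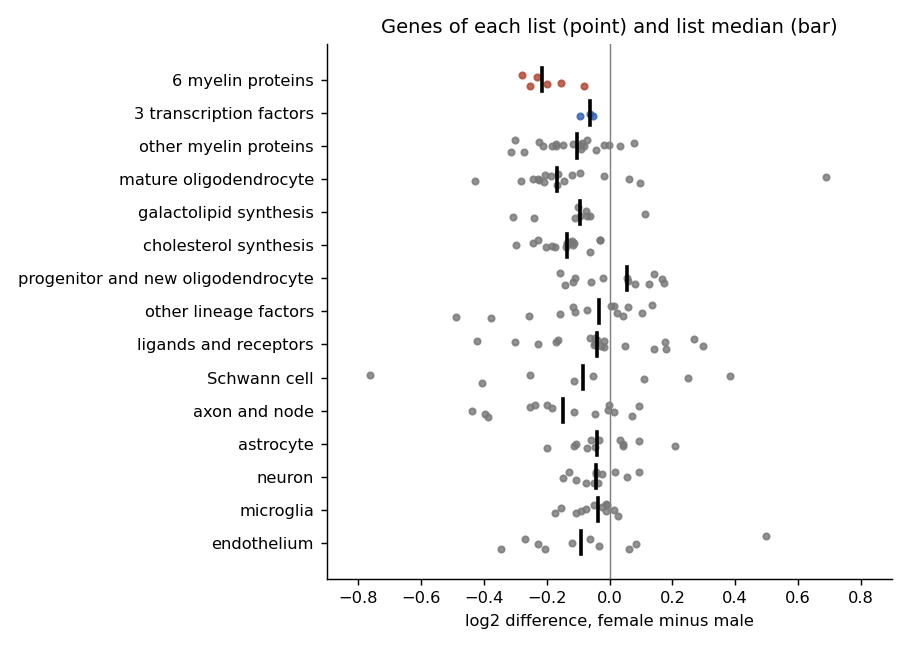
Female minus male log2 difference (horizontal axis) of each measured gene (point) and the median (black bar) for the 6 myelin protein genes, the 3 transcription factor genes and the other lists except choroid plexus and blood. Medians were -0.22 for the myelin proteins, -0.17 for mature oligodendrocyte genes and -0.15 for axon genes, and 0.056 for progenitor genes. With spike-in centring the medians of the 3 transcription factors, other lineage factors, ligands and receptors, astrocytes, neurons and microglia become positive. The median of all measured genes is then 0.099.

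Axons are what myelin wraps, and 11 of 14 axon and node genes were lower in the female pool (8 with spike-in centring), 7 of them at least 1.1-fold higher in the male pool. The median was -0.15, and it was -0.088 after normexp correction and -0.065 with spike-in centring. Of all measured genes, 44.5% were lower in the female pool, or 19.6% with spike-in centring. At least 1.1-fold higher were 11.6% of all measured genes in the male pool and 18.8% in the female pool. The neurofilament genes Nefl and Nefm had 188 and 451 in the male pool and 139 and 343 in the female pool, differences of -0.44 and -0.40. Nefh, chosen after its value was seen, had -0.39. Cntnap1, which encodes the axonal partner of the paranode and was chosen after its value was seen, had -0.00084, and the spectrin gene Sptbn4 had -0.0059. Schwann cells, which myelinate peripheral nerve, were checked because vagal roots enter nearby. Of their genes 8 of the 10 with a named probe were well above background, 3 at least 1.1-fold higher for males and 2 for females, with a median of -0.084 that was -0.0010 with spike-in centring. Dhh and Cdh19 were not well above background. Prx, which encodes a protein of peripheral myelin and was chosen after its value was seen, was dim, with 1.21 for males and 1.43 for females. Gldn was the 1 gene past 1.5-fold, with 25.8 and 15.2, a difference of -0.76. The summed scaled signal of the Schwann list was 68.3 for males and 58.3 for females, and the part of these cells in the myelin differences was not tested.

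General markers of other cell types differed less than the myelin protein genes in their medians, which were -0.044 for 12 neuron genes, -0.039 for 12 astrocyte genes, -0.037 for 12 microglia genes and -0.090 for 10 endothelial genes. With spike-in centring the first 3 of these medians are positive, at 0.039, 0.044 and 0.046, and the endothelial one is -0.0073. All 4 lie below the median of all measured genes, which is then 0.099. At least 1.1-fold higher in the male pool were 1 neuron gene, 1 astrocyte gene, 2 microglia genes and 4 endothelial genes, against 11.6% of all measured genes. Most genes of these lists were also lower in the female pool by any amount, against 44.5% of all measured genes. They were 9 of 12 neuron, 7 of 12 astrocyte, 10 of 12 microglia and 7 of 10 endothelial genes. With spike-in centring these counts were 3, 3, 4 and 5, against 19.6% of all measured genes. Named by the same rule, Uchl1 and Gap43 had -0.044 each, Stmn2 -0.13 and Thy1 -0.15 among neuron genes. Aldoc had -0.032, S100b 0.044, Gfap -0.20 and Gjb6 0.21 among astrocyte genes. Cx3cr1 had -0.17, Aif1 -0.15 and Ctss -0.013 among microglia genes, and Kdr had -0.35, Slc2a1 0.063 and Ocln 0.50 among endothelial genes. The endothelial genes picked by the rule do not show the direction of most of that list. Outside the rule and chosen after their values were seen, Cldn5 had -0.27, Vwf -0.23, Cdh5 -0.21 and Abcb1a 0.083.

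Marker RNAs of the choroid plexus and of blood differed far more between the pools in their medians. All 12 measured choroid plexus genes were at least 1.5-fold higher in the female pool, against 1.5% of all measured genes. The choroid plexus list had a median of 2.33 that was 1.07 after normexp correction, and a summed scaled signal of 787 for males and 9816 for females. Ttr had 617 and 9325, and the dim genes of that list in the male pool included Kcnj13 at 0.84 and Prlr at 0.74, which had 19.7 and 5.77 in the female pool. Sostdc1 had 3.61 and 67.9. Tmem72, also on that list, was not well above background on both arrays. All 8 measured blood genes, most of them of red cells, were at least 1.1-fold higher in the male pool, against 11.6% of all measured genes. The blood list had a median of -0.72 and a summed scaled signal of 7780 for males and 4928 for females. Slc4a1 had -0.93, Ahsp -0.92, Hbb -0.75 and Alas2 -0.73; the globin genes have near-identical copies, so the source of the Hbb signal is uncertain. The part of choroid plexus and blood in the oligodendrocyte differences was not tested.

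**Figure D5:**
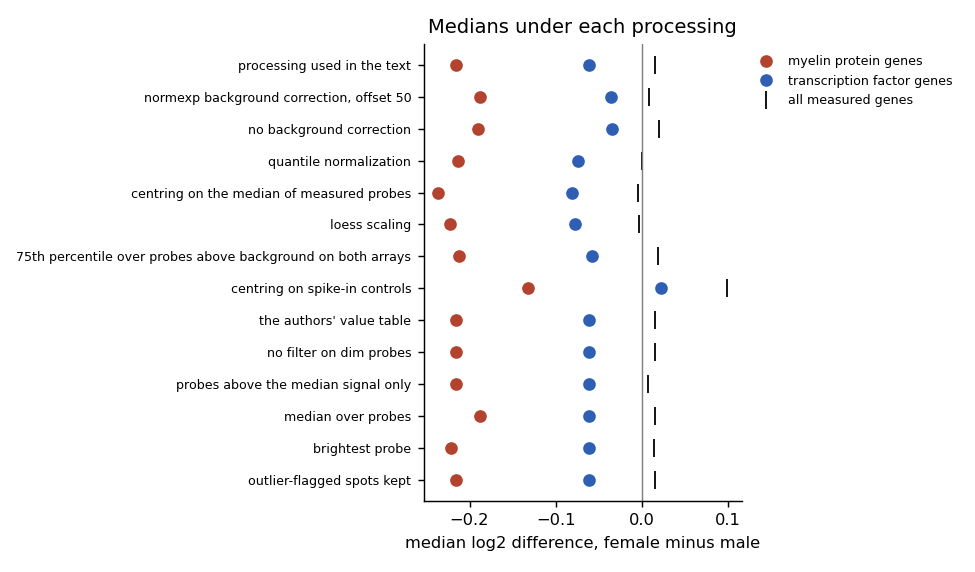
Median female minus male log2 difference (horizontal axis) of the 6 myelin protein genes (red), the 3 transcription factor genes (blue) and all measured genes (black ticks) under the processing used in the text and 13 alternatives (vertical axis). The myelin protein median stays between -0.24 and -0.13, and the transcription factor median is positive, at 0.022, with spike-in centring.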

How the data were processed

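The labels' protocols give total RNA pooled from 5 rats per sex, Cy3 labelling and 1-colour Agilent rat arrays. The deposited scanner files hold spot intensities on a linear scale, and the processed intensity is already background-corrected, per the file headers. The submitters' processing notes name Agilent Feature Extraction 9.1 and the file headers give 11.5.1.1. A value table from the authors gives intensities divided by 1 constant per array, 22.8 (male) and 23.4 (female); its column medians are 19.4 and 19.6, and it is linear, not centred by gene and without a direction.

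The log2 processed signal minus the 75th percentile of each array was used. Control spots and spots with an outlier flag on either array (284 male, 363 female) were left out. Spots of a probe were averaged, and a gene is the mean of its probes. A probe was measured when most of its spots were well above background on both arrays. Of 45598 probes, 21102 were named by matching unversioned accessions to a RefSeq table of assembly GRCr8, and 6958 with Ensembl identifiers were not matched. The array design uses rn4, so that table served for names only. The signal is limited by 1 array per sex, and no test is given.

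The 9 genes, the other lists and the fold of 1.1 were chosen with earlier results of these data known. From each other list the rule named up to 4 genes past 1.5-fold, or, where none was, the 2 brightest and the 2 with the largest difference; 2 of its picks are not reported here. Other settings were normexp correction with an offset of 50 and no correction, both on median spot signals, other scalings (quantile, median, loess, percentile of detected probes, spike-in), the authors' table, other filters and summaries, and other folds, of which 1.2 is given. Summaries were tested on simulated data. Python 3.11.15, numpy 2.4.6, pandas 2.3.3, scipy 1.17.1, R 4.3.3 and limma 3.58.1 were used.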

Additional observations from a re-analysis of the deposited data

How the results depend on the processing

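No paired analysis was possible because the male and female pools give a single pair of arrays. Over 13 other settings, all 9 genes stayed lower on the female array in 12, and the exception was centring on spike-in controls. There the myelin protein median moved to -0.13, the transcription factor median turned to 0.022, and the count of genes at 1.1-fold or more fell from 5 to 3. The share of all measured genes at least 1.1-fold higher in the male pool fell from 11.6% to 6.05%. Under that centring Mbp was 0.00092, Olig1 0.031 and Olig2 0.022. Of the other lists, the medians of lineage factors (0.049), ligands and receptors (0.042), astrocytes (0.044), neurons (0.039) and microglia (0.046) also became positive. These medians lay below that of all measured genes, which was then 0.099. With a fold of 1.2 in place of 1.1, 1 of the 9 genes was called. The 10-spot probes alone, a setting chosen after seeing the data, gave a myelin protein median of -0.22, and over the other settings the myelin protein median lay between -0.24 and -0.13. The filters on dim probes and the authors' values, which are the same signal divided by a constant, could hardly move these genes. The cause of the spike-in step was not tested. Each gene rests on 1 to 3 probes and each sex on 1 array. All 16 probes were well above background on both arrays.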
